A study of Mus musculus with 22 samples.

Results

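Fast signalling between neurons runs through ionotropic receptors, ion channels that open when a neurotransmitter binds to them. The 44 genes described here encode their subunits, out of 20129 gene symbols that had a probe on the array. The rule that lists them names gene families and uses no measured value: 14 GABA-A, 4 glycine, 4 AMPA, 7 NMDA, 5 kainate, 1 delta and 9 nicotinic receptor subunits. Where a gene had more than 1 probe with a RefSeq identifier, the probe whose median was highest stood for it.

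A receptor is a ring of several subunits, and the subunits that a neuron makes set the kinetics, the pharmacology and the place of its receptors. GABA-A and glycine receptors pass chloride and are mainly inhibitory in the mature brain. AMPA, NMDA and kainate receptors pass cations on binding glutamate, and nicotinic receptors do so on binding acetylcholine. In rodents the first weeks after birth are a time in which several subunits replace one another while synapses form.

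The levels came from Transcriptome Tomography, which cuts a whole brain into serial slabs along 1 axis (each slab, or pool of neighbouring slabs, being a fraction) and reads the RNA of every fraction on an array of its own. The 3 mice were males of the inbred strain C57BL/6J with no treatment named in the labels, and their brains gave 22 fractions: 10 coronal, 6 horizontal and 6 sagittal, with 1 mouse per series. By their titles the samples were 7 days old, while their age field says 3 days. Each fraction was measured once, so mouse and cutting plane cannot be told apart, and each error below rests on how far single arrays lay from a fitted curve. From which end fraction 1 was taken is not in the labels. Slabs were pooled at the ends only: 10 and 11 in coronal fraction 10, 1 and 2 in sagittal fraction 1, and 7 to 9 in sagittal fraction 6. Markers of the hindbrain such as Hoxb5 were highest in coronal fraction 1 (log2 level 4.44), and the mean level of 3 olfactory bulb markers was highest in coronal fraction 10 (3.03). All 5 neuronal markers were well above background in all 22 fractions.

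A log2 level is the log2 of a probe's background-subtracted intensity minus the 75th percentile of its array, so 0 marks that percentile and a difference of 1 is a doubling. Levels of different genes come from different probes and were not set against each other. The number of arrays limits the precision. On 7 arrays the slope of the spike-in control series was marked out of range: coronal fractions 1 and 2, horizontal fractions 1 to 3 and sagittal fractions 1 and 3. These arrays had 36119 to 41965 probes well above background against 29605 to 36342 on the other 15. The spike-in control a107 read 6.39 to 8.24 on the log2 intensity scale on those arrays against 2.96 to 4.92 on the others. Values without these arrays, or with a107 as a covariate, are given below beside calls that they ended.

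Of the 44 subunit genes, 35 were well above background in all 22 fractions. Another 6 were so in 6 to 21 fractions, with at least 1 in every series, which gave 41 tested members. Gabre and Chrnb3 were above background only in coronal fraction 4, and Chrna5 in 4 fractions, none of them horizontal, so these 3 were not tested. Gabrq (6 fractions) and Glra1 (7 fractions) were also below background in most of the brain.

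**Figure D1:**
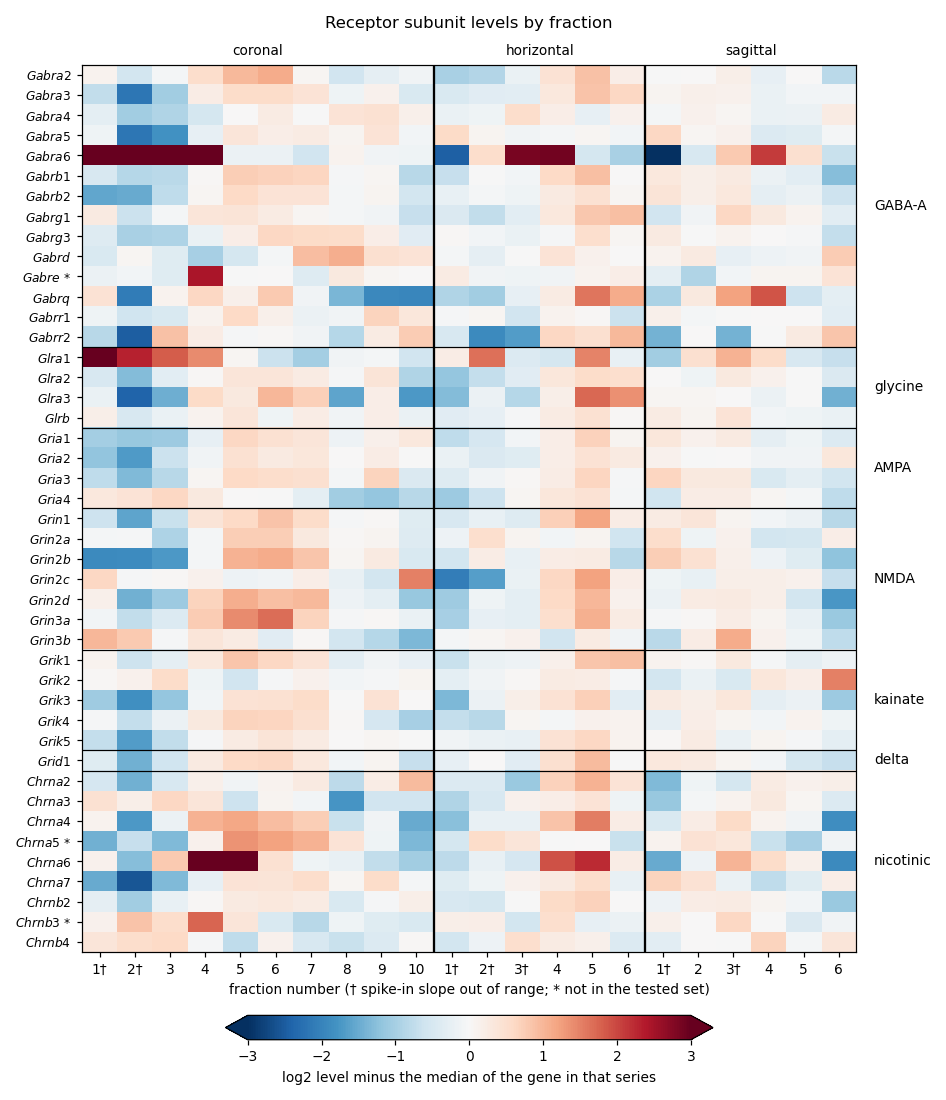
Level of each of the 44 subunit genes (rows, grouped by receptor family) in the 22 fractions (columns), as the log2 level minus the median of that gene in that series. Red is above and blue below the median, the colour scale ends at 3 log2 units either way, and values below background are drawn as measured. Gabra6, Glra1 and Chrna6 hold the darkest red cells of the coronal series, and most rows turn blue in coronal fraction 2.

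Along the coronal series 19 of the 41 tested members, or 46.3%, passed an adjusted p of 0.05, beside 19.8% of all 39621 probes tested. Of the 25815 probes well above background in all 22 fractions, as 35 of the members were, 32.8% passed when tested on their own. The linear term was positive in 14 of the 19 (12.4% of all probes) and negative in 5 (7.44% of all probes). By family the calls were 6 of 13 GABA-A, 2 of 4 glycine, 4 of 4 AMPA, 3 of 7 NMDA, 3 of 5 kainate, 0 of 1 delta and 1 of 7 nicotinic subunits. The median fitted range of the 41 members along the series was 1.51 log2 units. Of these members 26 had their lowest coronal level in fraction 2, where 26.4% of all tested probes had theirs, and 12 and 11 had their highest in fractions 5 and 6, where 6.54% and 7.21% of all probes had theirs. Fraction 2, the 1 array of its slide, held the highest coronal level of 29.8% of all probes. When the arrays with a slope out of range were left out, 14 members passed, beside 10.4% of all probes, and 10 of these were among the 19. With slide as a block 4.03% of all probes and 7 members passed (Gabra6, Gabrb2, Glra1, Gria2, Grin2b, Grik3 and Chrna7), and the other 12 of the 19 had adjusted p-values from 0.054 (Glra2) to 0.303 (Gabra4). When only the 10 coronal arrays were fitted 4 passed (1.60% of all probes), and on the 7 coronal fractions of slide 1 alone 5 passed (10.12% of all probes). Of the 19 members 8 had a second tested probe, and of these second probes 3 passed (Glra1, Gria3 and Grin2b), while those of Gabra3, Gabrg3, Gria2, Gria4 and Grin1 did not, with adjusted p-values of 0.6, 0.0565, 0.152, 0.153 and 0.0896.

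**Figure D2:**
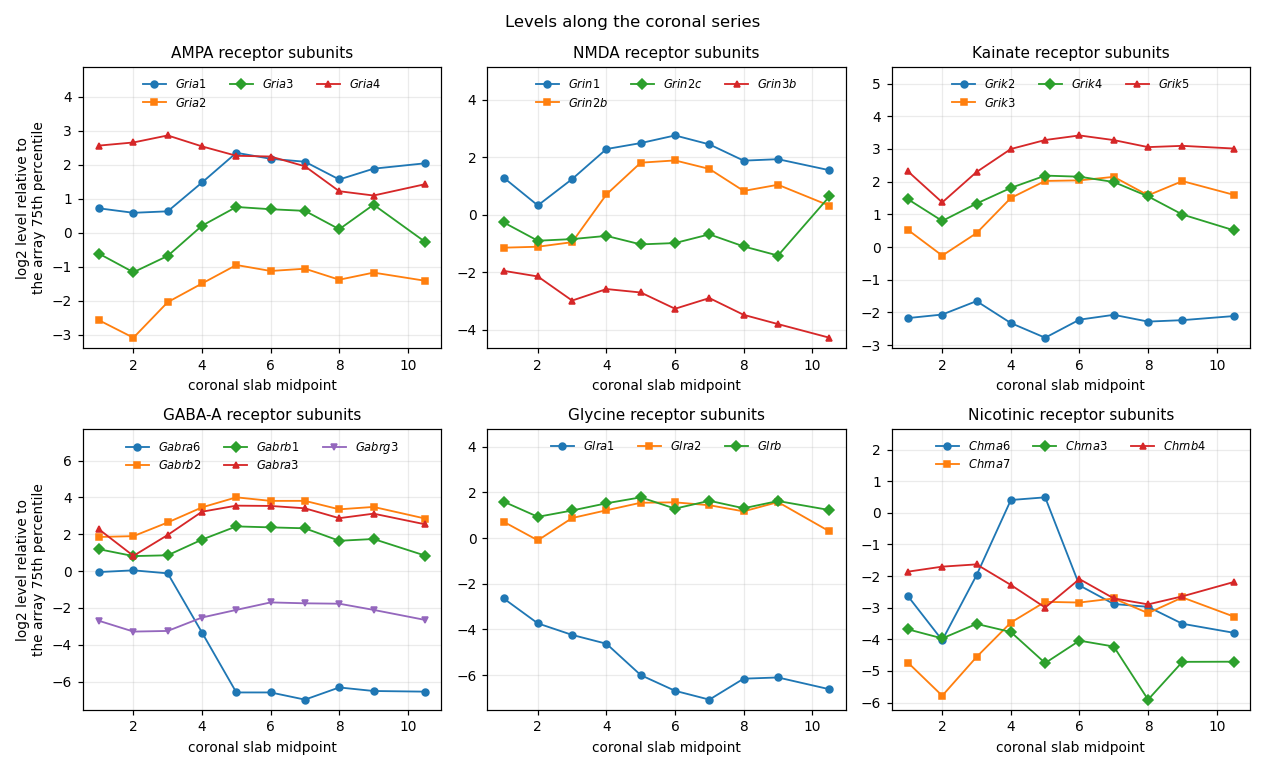
Log2 level (y axis, relative to the 75th percentile of the array) against the midpoint of the pooled slabs (x axis) in the 10 coronal fractions, 1 panel per receptor family, 1 line per gene, 1 array per point. Gria4 falls from left to right while the other AMPA subunits are lowest in the first fractions, and Gabra6 drops from near 0 in fractions 1 to 3 to -6.59 in fraction 5.

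AMPA receptors carry most fast excitation, and the coronal linear term was positive for Gria1, Gria2 and Gria3 and negative for Gria4. Gria1, which encodes a subunit enriched in forebrain receptors, ranged from 0.59 in coronal fraction 2 over a median of 1.73 to 2.35 in fraction 5. All 3 of its levels in fractions 1 to 3 lay below all those in fractions 4 to 10. The fitted linear change of Gria1 over the whole series was 1.52 ± 0.35 log2 units (SE, adjusted p = 0.011). Gria3 had log2 levels from -1.16 in fraction 2 to 0.83 in fraction 9 with a median of 0.15, and it rose by 1.19 ± 0.37 (adjusted p = 0.0139, and 0.0669 with a107 in the model). Gria2 encodes the subunit whose edited form makes AMPA receptors impermeable to calcium. Its log2 level ran from -3.09 in fraction 2 to -0.95 in fraction 5 with a median of -1.40, a linear change of 1.56 ± 0.30 (adjusted p = 0.00265). The second probe of Gria2 did not follow the first (r = -0.12 over the 22 fractions) and did not pass along this series (adjusted p = 0.152), while it did in the sagittal linear term, where the first did not (1.85, adjusted p = 0.0219, against 0.834).

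Gria4, which encodes a subunit abundant in hindbrain and cerebellar circuits, ran the other way. Its highest coronal level was 2.87 in fraction 3, its median 2.26 and its lowest 1.1 in fraction 9, so that fractions 1 to 4 lay above all later ones. The linear change was -1.73 ± 0.26 log2 units (adjusted p = 0.0022), with a107 in the model the adjusted p was 0.00204, and with slide as a block it was 0.0856, no longer past the threshold. The second probe of Gria4 correlated with the first at r = 0.83 and had a linear term of -0.72, with an adjusted p of 0.153. Over the 22 fractions Gria4 correlated with the 4 astrocyte markers at r = 0.88 (Aqp4), 0.65 (Aldh1l1), 0.29 (Slc1a3) and 0.07 (Gja1), a description in which fractions of 1 brain are not independent. Without the 7 arrays the adjusted p was 0.176 for Gria1, 0.104 for Gria2, 0.0921 for Gria3 and 0.0262 for Gria4.

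NMDA receptors need both glutamate and membrane depolarisation to open. Grin2b encodes the GluN2 subunit that dominates the forebrain before and shortly after birth. Its coronal log2 level was lowest in fraction 1 (-1.15), had a median of 0.77 and peaked in fraction 6 (1.89), a difference of 8.21-fold. Fractions 1 to 3 all lay at -0.96 or lower and every later fraction at 0.32 or higher. The linear change was 2.16 ± 0.47 (adjusted p = 0.0018), the second probe passed too (linear term 1.46, adjusted p = 0.0169), and without the 7 arrays the adjusted p was 0.0493. Grin1, the obligatory subunit of all NMDA receptors, ranged from 0.32 in fraction 2 over 1.91 to 2.76 in fraction 6 (adjusted p = 0.0363, and 0.288 with a107 in the model). Grin3b, whose glycine-binding subunit is known from motor neurons, had its highest coronal log2 level in fraction 1 (-1.95), a median of -2.95 and its lowest level in fraction 10 (-4.28). It fell by 2.06 on the log2 scale along the series, with an SE of 0.36 (adjusted p = 0.00583, 0.0262 without the 7 arrays and 0.218, no longer past the threshold, with slide as a block). Grin2a, Grin2c, Grin2d and Grin3a did not pass along this series, with adjusted p-values from 0.0619 to 0.269.

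Kainate receptor subunits Grik3 and Grik5 rose along the coronal series. Grik3, a low-affinity subunit, had its lowest log2 level in fraction 2 (-0.26), a median of 1.59 and its highest in fraction 7 (2.15), with a linear change of 1.83 ± 0.38 (adjusted p = 0.00555, and 0.0651 without the 7 arrays). Grik5, a high-affinity subunit that needs another subunit to form a channel, ranged from 1.36 in fraction 2 over 3.03 to 3.41 in fraction 6 (linear term 1.27 ± 0.36, adjusted p = 0.0218, and 0.091 with a107 in the model). Grik4, the other high-affinity subunit, was highest in the middle: 2.18 in fraction 5, with a median of 1.51 and its lowest level, 0.51, in fraction 10 (adjusted p = 0.0138, and 0.241 with slide as a block, fraction 10 being on slide 3). Its linear term was small (-0.36 ± 0.31). Neither Grik1 nor Grik2 passed along this series.

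Among the GABA-A subunits Gabra6 had the widest coronal range. It encodes the alpha6 subunit, known from the granule cells of the cerebellum. Its log2 level was -0.05, 0.04 and -0.12 in fractions 1 to 3 and -3.34 in fraction 4. In all 6 later fractions the probe was not well above background, with measured values of -6.32 to -6.98, so the fraction with the highest level exceeded the lowest by at least 69.0-fold. The linear term was -8.08 ± 1.09 (adjusted p = 0.000717), and it passed without the 7 arrays (0.0265) and with slide as a block (0.0158). In the horizontal series Gabra6 was above background in fractions 2 to 4 with its highest level in fraction 4 (-1.09), and in the sagittal series in fractions 2 to 6 with its highest in fraction 4 (-0.53). Over the 22 fractions its level correlated at r = 0.94 with Pcp2 and at 0.89 with Neurod1, both markers of cerebellar cells. Of the 5 cerebellar markers 4 fell along the coronal series, and their mean log2 level went from 4.76 in fraction 3 to 0.83 in fraction 8. In bulk fractions like these, fewer cells of a type and less RNA per cell cannot be told apart.

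Gabrb2, which encodes a beta subunit of the most common adult GABA-A receptors, had the lowest adjusted p of all members. Its coronal log2 level was 1.85 in fraction 1, 1.90 in fraction 2 and 2.64 in fraction 3, had a median of 3.41 and peaked at 4.00 in fraction 5. No fraction after the third fell under 2.85, so fractions 1 to 3 were below all others. The linear change was 1.32 ± 0.26 with a fitted range of 2.23 (adjusted p = 0.000621, and 0.0568 without the 7 arrays). Gabra3, an alpha subunit prominent in the young forebrain, ran from 0.83 in fraction 2 over 3.0 to 3.55 in fraction 5 (adjusted p = 0.0302). The second probe of Gabra3 went its own way (r = -0.34 with the first, adjusted p = 0.6). Gabrb1 ranged from 0.81 in fraction 2 over 1.68 to 2.43 in fraction 5 (adjusted p = 0.0234) and Gabrg3, a gamma subunit, from -3.28 in fraction 2 over -2.31 to -1.70 in fraction 6 (adjusted p = 0.0323). Gabra4, known from thalamus, striatum and hippocampus, ranged from -0.85 in fraction 2 over 0.19 to 0.64 in fraction 9 (adjusted p = 0.0368). With a107 in the model the adjusted p-values of Gabra3, Gabra4, Gabrb1 and Gabrg3 were 0.183, 0.0528, 0.123 and 0.106.

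Glycine receptors mediate inhibition in brainstem and spinal cord, and their alpha subunits change with age. Glra1, the alpha subunit of the adult receptor, was well above background in coronal fractions 1 to 4 alone, with log2 levels of -2.64, -3.74, -4.24 and -4.63. Each of these 4 fractions lay above all later ones, whose measured values were -6.0 to -7.07. Fraction 1 exceeded the lowest fraction by at least 10.7-fold, and the linear term was -3.88 ± 0.72 (adjusted p = 0.00439, and 0.0495 without the 7 arrays). The second probe gave the same direction (r = 0.88, linear term -4.33, adjusted p = 0.0112). Glra2, the fetal and neonatal alpha subunit, went from -0.10 in fraction 2 over 1.19 to 1.57 in fraction 9 (adjusted p = 0.0259, and 0.128 with a107 in the model). Glrb, the beta subunit that anchors the receptor, had the smallest spread of the 41 members, an SD of 0.27 over the 22 fractions. It ranged from 0.93 to 1.78 in the coronal, 0.89 to 1.68 in the horizontal and 1.22 to 1.83 in the sagittal series.

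Of the nicotinic subunits only Chrna7 passed along the coronal series. It forms receptors of 1 subunit type with a high calcium permeability. Its log2 level was -4.74, -5.79 and -4.56 in fractions 1 to 3, below the -3.47 to -2.68 of the later fractions. The linear change was 2.42 ± 0.45 (adjusted p = 0.00309, and 0.0465 without the 7 arrays). Chrna6, whose subunit is known from midbrain dopamine neurons, showed a narrow peak instead. Its log2 level was 0.40 in fraction 4 and 0.49 in fraction 5, and at most -1.97 in the other 8, with the lowest value of -4.03 in fraction 2. The highest fraction exceeded the lowest by 22.9-fold, but a quadratic curve followed this peak poorly and the test did not pass (adjusted p = 0.112). In the horizontal series Chrna6 was highest in fractions 4 and 5 (-0.77 and -0.43, against at most -2.44 elsewhere), and in the sagittal series in fraction 3 (-0.82). Over the 22 fractions the 3 markers of midbrain dopamine neurons correlated with Chrna6 at r = 0.84 (Slc6a3), 0.72 (Pitx3) and 0.59 (Th). Slc6a3, the dopamine transporter gene, was highest in the same fractions as Chrna6, coronal 5, horizontal 5 and sagittal 3. Pitx3 was highest in coronal 4, horizontal 5 and sagittal 5, and Th in coronal 10, horizontal 5 and sagittal 4. Chrna3, Chrna4 and Chrnb4 did not pass, with adjusted p-values of 0.0572, 0.0548 and 0.0652.

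**Figure D3:**
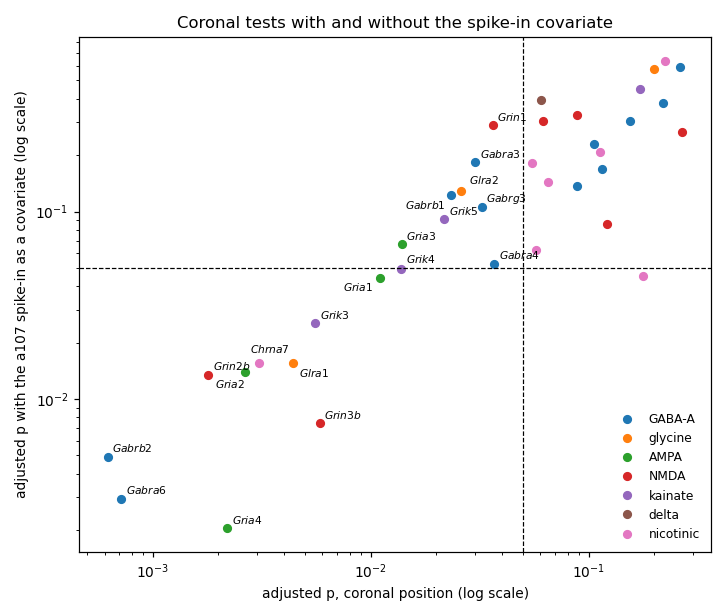
Adjusted p of the coronal test (x axis, log scale) against the adjusted p with the a107 spike-in as a covariate (y axis, log scale) for the tested members with an adjusted p under 0.3, coloured by receptor family. Dashed lines mark 0.05, and 8 of the 19 named genes lie above the horizontal line.

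Neuronal markers did not share 1 coronal profile. Syt1, a gene of the synaptic vesicle, had its lowest coronal log2 level in fraction 2 (4.26) and its highest in fraction 6 (6.65), whereas Snap25, a gene of the presynaptic fusion machinery, was highest in fraction 2 (8.55). Gabra3, Gabrb2, Gria1, Gria2, Gria3, Grin1, Grin2b, Grik5 and Chrna7 each correlated with Syt1 at r of 0.81 to 0.90 over the 22 fractions. With Snap25 the r of the same 9 members was -0.65 to -0.27, and with the other 3 neuronal markers 0.33 to 0.77. Other members, Chrna2 and Chrnb4 among them, did not reach such an r with Syt1, and no count over all tested members is given here. Of the 5 neuronal markers 4 passed along the coronal series. Syt1, Stmn2 and Tubb3 rose, while Rbfox3 had a linear term of 0.16, was highest in fraction 6 and lowest in fraction 10. The mean log2 level of all 5 was 6.19 in coronal fraction 2 and 6.11 in coronal fraction 10. It ranged from 5.79 to 6.78 in the coronal, 5.98 to 6.87 in the horizontal and 5.98 to 6.82 in the sagittal series. All 4 oligodendrocyte markers passed along the coronal series, of which 3 fell, while Mbp had a linear term of 0.12 and was highest in fraction 6. The mean log2 level of all 4 was 4.33 in fraction 1 and 0.75 in fraction 9. The part of these cell types in the subunit levels was not tested.

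Single fractions decided some of the coronal calls. Gabra6, Gabrb2, Glra1, Gria1, Gria2, Gria3, Gria4, Grin2b, Grin3b, Grik3 and Chrna7 passed whichever of the 22 fractions was left out. Grik5 did not pass without coronal fraction 2 (adjusted p = 0.0576), nor Grik4 without fraction 10 (0.0667). Glra2 did not pass without coronal fraction 5, 6 or 7, and Gabra3 and Gabrb1 not without fraction 2, 5, 6 or 7, with adjusted p-values of at most 0.0612, 0.0672 and 0.0626. Gabrg3 was lost without coronal fraction 2, 5, 6, 7 or 9 (at most 0.102), Gabra4 without any 1 of fractions 2 to 9 (at most 0.116) and Grin1 without any 1 of 8 fractions, coronal 2, 4, 5, 6, 7 and 9 and sagittal 4 and 5 (at most 0.087). Without coronal fraction 1 the call held for all 19 and 10 more members passed, with 27.0% of all probes passing in that fit.

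Along the horizontal series 5 of 41 members passed, or 12.2%, beside 6.57% of all probes, and the linear term was positive in all 5. Among probes well above background in all fractions, tested on their own, the share was 16.1%. Of the 41 members 29 were highest in horizontal fraction 5, where 16.0% of all tested probes had their highest value, and 23 were lowest in fraction 1, where 12.8% of all probes had their lowest. Cell type markers differed between the same fractions. The mean log2 level of 4 oligodendrocyte markers, 2 of which passed, ran from 0.05 in fraction 1 to 3.84 in fraction 5, and that of 4 microglial markers, 3 of which passed, from 1.74 in fraction 1 to 3.34 in fraction 6. That of 4 blood markers, none of which passed, ran from 2.27 in fraction 1 to -0.04 in fraction 5. The part of these cells in the member levels was not tested.

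Grin2c, which encodes the GluN2 subunit known from mature cerebellar granule cells, had the widest fitted range of the 5 (3.14), while that of Gabra6, which did not pass (adjusted p = 0.0517), was 4.64. Its log2 level was -3.52 and -3.08 in fractions 1 and 2, had a median of -1.44 and reached -0.23 in fraction 5, a 9.78-fold difference. Its linear change was 2.97 ± 0.51 (adjusted p = 0.0116). Gria4 went from 0.85 in fraction 1 over a median of 1.95 to 2.38 in fraction 5 (linear term 1.24 ± 0.30, adjusted p = 0.0271).

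Glra2 had its lowest horizontal log2 level in fraction 1 (-0.20), a median of 0.97 and its highest in fraction 5 (1.52), with an adjusted p of 0.032. Gabrg1, a gamma subunit, was lowest in fraction 2 (0.28) and highest in fraction 6 (1.93), with a median of 1.03 and an adjusted p of 0.0317. Grik3 ranged from -0.53 in fraction 1 over 0.82 to 1.54 in fraction 5 (adjusted p = 0.0491). The first 3 horizontal fractions were all on arrays with a slope out of range, so that position and these arrays cannot be told apart over that stretch. With a107 in the model none of the 5 passed by limma (adjusted p-values of 0.13 to 0.292), and none passed without the 7 arrays or when the horizontal arrays were fitted alone. Leaving out horizontal fraction 1 left 0 members past the threshold, fraction 2, 4 or 5 left 1, fraction 6 left 2 and fraction 3 left 3, while 8 passed without coronal fraction 1 or 2. All probes moved with these counts: 0.0227% passed without horizontal fraction 1, 0.999% to 2.83% without 1 of the other horizontal fractions, 9.57% without coronal fraction 1 and 16.5% without coronal fraction 2. Grin2c kept its call without each fraction other than horizontal fraction 1 (adjusted p = 0.0706).

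**Figure D4:**
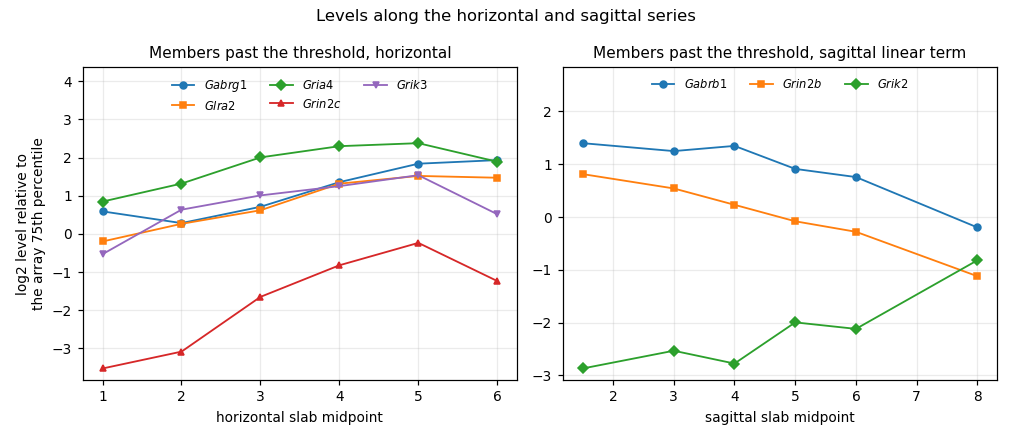
Log2 level (y axis, relative to the 75th percentile of the array) against slab midpoint (x axis) for the 5 members that passed along the horizontal series (left) and the 3 that passed in the sagittal linear term (right), 1 array per point. The horizontal lines are highest in fraction 5, or for Gabrg1 in fraction 6, and in the sagittal panel Grik2 climbs to -0.82 in the last fraction while Gabrb1 and Grin2b drop.

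The sagittal linear term, from one side of the brain to the other, passed for 3 of 41 members, or 7.32%, beside 10.2% of all probes. Among probes well above background in all fractions, tested on their own, the share was 18.9%. Grin2b went from 0.81 in fraction 1 over 0.08 to -1.12 in fraction 6 (linear term -1.93 ± 0.58, adjusted p = 0.0496) and lay lower in each fraction than in the one before. Gabrb1 went from 1.40 in fraction 1 over 1.08 to -0.20 in fraction 6 (-1.56 ± 0.46, adjusted p = 0.0441). Grik2, a kainate subunit found in many brain regions, rose from -2.87 in fraction 1 over -2.33 to -0.82 in fraction 6 (1.95 ± 0.34, adjusted p = 0.00405). Its first 5 sagittal fractions lay between -2.87 and -2.0, and without fraction 6 the adjusted p was 0.67. Gabrb1 lost its call in 13 and Grin2b in 17 of the 22 fits that left out 1 fraction, every sagittal fraction among them. With a107 in the model the adjusted p was 0.0688 for Gabrb1, 0.0628 for Grin2b and 0.023 for Grik2. Without scaling between arrays Grik2 did not pass (adjusted p = 0.0898). Without the 7 arrays it was 0.0504, 0.152 and 0.0548, so that none of the 3 passed, and with slide as a block 0.0502, 0.0587 and 0.00617. The second Grik2 probe correlated with the first at r = 0.35 and did not pass (adjusted p = 0.647). Fraction 6 pooled slabs 7 to 9 and was the lowest sagittal fraction for 22 of the 41 members, and for 22.8% of all tested probes. The mean log2 level of 4 blood markers ranged from -1.15 to 2.60 over the sagittal fractions and that of 3 meningeal markers from 1.94 to 3.72, both highest in fraction 6. The part of these cells in the member levels was not tested.

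No member passed in the sagittal quadratic term, which sets the middle against both sides, by limma (8 of 41 at an unadjusted p under 0.05), beside 0.0303% of all probes. Series means did not pass for any member either (3 of 41 at an unadjusted p under 0.05, lowest adjusted p 0.383), beside 0.00757% of all probes.

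Likeness between members was measured by the Pearson r of log2 levels over the 22 fractions. Of the 820 pairs of tested members 28, or 3.41%, had r above 0.85, beside 1.91% of all probe pairs. Within families 4 of 142 pairs were above 0.85 (2.82%) and between families 24 of 678 (3.54%). The highest r was 0.95, between Grin1 and Grid1, a delta subunit that binds synaptic organisers. Grin1 had the most partners, 8, followed by Gria3 with 6. Gabrb1, Grin2d and Grin3a had 5 partners each. Of the 41 members 25 were in no such pair, Gabra6 and Gria4 among them, and the lowest r of all pairs was -0.76, between Gabra6 and Gabra5. These r are descriptions, in which both genes of a pair are read from the same arrays and fractions of 1 brain are not independent. Centring each array on its median gave 86 such pairs and regressing out a107 gave 23. The share of all probe pairs at these 2 settings is not given here, so these counts are not read as a result about the members.

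Grin2d, a GluN2 subunit of the young brainstem and of interneurons, and Chrna4, the alpha subunit of the main high-affinity nicotinic receptor, were among the most alike members (r = 0.93 in all fractions, and 0.92, 0.99 and 0.95 within the coronal, horizontal and sagittal series). Both were highest in coronal fraction 5 (-1.0 and 1.13), lowest in coronal fraction 2 and highest again in horizontal fraction 5. Their promoters are shown to set the sequence beside this likeness. Each is the 250 bases before the transcript start listed by RefSeq for GRCm38.p6, in lower case with motifs in capitals.

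Grin2d (chr7:45866682-45866931, minus strand): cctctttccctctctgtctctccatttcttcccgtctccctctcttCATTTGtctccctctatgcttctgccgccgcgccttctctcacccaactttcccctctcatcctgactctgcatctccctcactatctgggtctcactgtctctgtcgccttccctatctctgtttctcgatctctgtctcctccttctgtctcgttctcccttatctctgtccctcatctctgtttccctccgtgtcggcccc

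Chrna4 (chr2:181039178-181039427, minus strand): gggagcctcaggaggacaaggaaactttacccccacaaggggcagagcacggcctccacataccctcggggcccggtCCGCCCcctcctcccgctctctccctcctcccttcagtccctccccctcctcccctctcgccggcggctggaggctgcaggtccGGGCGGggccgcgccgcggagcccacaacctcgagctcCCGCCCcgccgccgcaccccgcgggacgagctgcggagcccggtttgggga

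The motifs searched, on both strands, were GGGCGG, known as the GC box, then TATAAA, the core of the box named after its first letters, and CANNTG, the E-box. They do not overlap in the windows printed here. Of 32851 promoter windows of this length 32.7% held a GC box, 12.4% a TATA box and 66.2% an E-box. The table held 37 windows of 32 of the 44 members, of which 18 held a GC box, 5 a TATA box and 22 an E-box. Chrna4 held 3 GC boxes and a GC content of 74.4%, while the Grin2d window held 1 E-box and a GC content of 54.4%. The median GC content was 59.6% over the member windows and 52.4% over all windows. A match of letters is no binding site.

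Many receptor subunit genes lie next to each other in the genome. In the RefSeq gene order 8 pairs of tested members were direct neighbours. Their r had a median of 0.49 over the 22 fractions, beside 0.39 for the other 812 member pairs, and none of the 8 was above 0.85. Chrna3 and Chrnb4, which encode subunits of 1 ganglionic and habenular receptor type, had r = 0.73 and were both highest in coronal fraction 3. Gabrg1 and Gabra2 had r = 0.72, and Gabrg3 and Gabra5 had r = 0.71. Gria2 and Glrb had r = 0.52, Gabra3 and Gabrq 0.46, Gabrr2 and Gabrr1 0.35, and Gabra4 and Gabrb1 0.16.

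**Figure D5:**
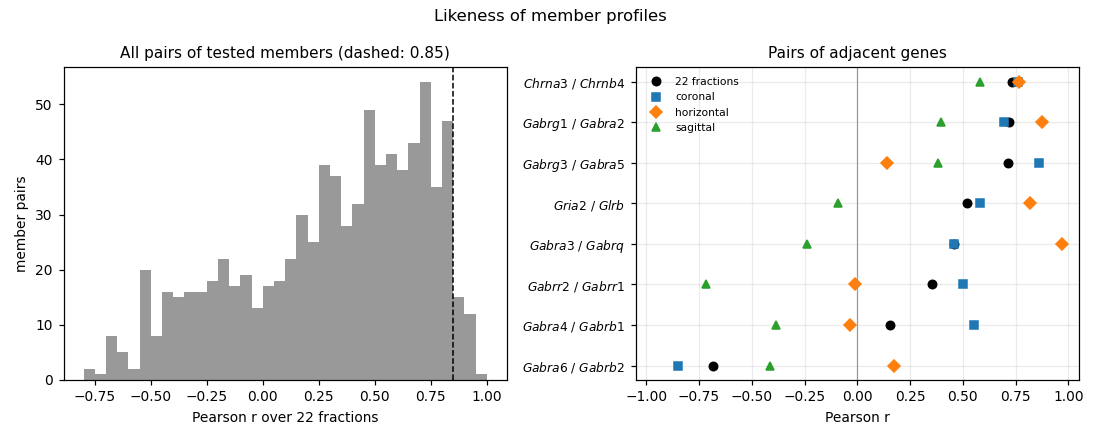
Left, number of member pairs (y axis) by Pearson r over the 22 fractions (x axis) for the 820 pairs of tested members, with 0.85 dashed. Right, r of the 8 pairs of adjacent member genes over all fractions (black) and within each series (colours), with Gabra6 and Gabrb2 below 0 over all fractions.

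Gabra6 and Gabrb2 were the adjacent pair with r below 0 over all fractions (r = -0.68, and -0.85 in the coronal series). Gabra6 was highest in coronal fraction 2 and Gabrb2 in fraction 5, as given above, while in the horizontal series r was 0.17. The promoters of these neighbours on chromosome 11 are shown because their profiles ran in opposite directions.

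Gabra6 (chr11:42321073-42321322, minus strand): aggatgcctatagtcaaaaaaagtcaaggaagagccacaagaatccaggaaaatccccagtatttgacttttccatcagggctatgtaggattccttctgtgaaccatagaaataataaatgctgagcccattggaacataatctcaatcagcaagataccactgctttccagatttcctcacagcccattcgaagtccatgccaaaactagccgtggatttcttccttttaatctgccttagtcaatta

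Gabrb2 (chr11:42420190-42420439, plus strand): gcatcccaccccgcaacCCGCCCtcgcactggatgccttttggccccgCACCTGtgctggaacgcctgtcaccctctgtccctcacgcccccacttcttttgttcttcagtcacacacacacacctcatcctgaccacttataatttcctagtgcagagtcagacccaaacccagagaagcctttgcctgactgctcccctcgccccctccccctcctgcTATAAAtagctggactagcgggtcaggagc

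The Gabra6 window held none of the motifs, with a GC content of 40.8%. The first listed Gabrb2 window held a TATA box whose first base lies 30 bases before the start, an E-box from base 202 and a GC box from base 233, with a GC content of 58.8%.

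The remaining neighbours spanned low and high variation. Gabrr2, a rho subunit known from retina, ranged widely, from -1.40 in coronal fraction 2 over 1.06 to 1.94 in fraction 3, without a positional call (adjusted p = 0.402). Over the 22 fractions Gabrr2 correlated with the 3 endothelial markers at r = 0.88 (Kdr), 0.35 (Cldn5) and 0.22 (Pecam1). Gabrr1, its neighbour, stayed between -2.26 and -1.0 in the coronal series. Gabra5, an alpha subunit of extrasynaptic receptors in the hippocampus, ranged from -0.67 in coronal fraction 2 over 1.5 to 1.91 in fraction 9 (adjusted p = 0.106, and 0.0464 without the 7 arrays). Gabra2 ranged from -1.26 in coronal fraction 8 over -0.68 to 0.43 in fraction 6 (adjusted p = 0.263). Chrna3 was well above background in 13 of 22 fractions, with its highest coronal level of -3.51 in fraction 3. Chrnb4 ranged from -3.0 in coronal fraction 5 over -2.24 to -1.63 in fraction 3. Gabrq, the theta subunit, reached -3.94 in coronal fraction 6, at least 3.76-fold above its lowest fraction.

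Receptors work with auxiliary subunits, scaffolds and transmitter supply, and 42 genes of these kinds were read from the same fits. Of these 24 passed along the coronal series, or 57.1% beside 19.8% of all probes, 18 with a positive and 6 with a negative linear term. Slc17a7, the vesicular glutamate transporter of cortical neurons, rose by 3.89 log2 units, while Slc17a6, the transporter of brainstem and thalamic neurons, had a linear term of -1.83. Among the AMPA receptor auxiliary subunits 6 of 10 passed. Cnih3 rose by 2.39 and Cacng8, the hippocampal TARP, by 2.01, while Cacng2, the TARP of cerebellar granule cells also known as stargazin, had a linear term of -1.18. Both kainate receptor auxiliary subunits, Neto1 and Neto2, rose (1.79 and 1.13). Of the 13 scaffold and anchoring genes 8 passed. Dlg2, Dlg3 and Homer1 were among those that rose, and Shank2 passed with a linear term of 0.04 ± 0.29, highest in fraction 6 and lowest in fraction 10. Dlg4, the scaffold PSD-95, had a linear term of 1.65, and Gphn, which anchors glycine and GABA-A receptors, did not pass (adjusted p = 0.914). Neither chloride transporter gene passed. Along the horizontal series 7 of the 42 passed (16.7%, beside 6.57% of all probes) and in the sagittal linear term 5 (11.9%, beside 10.2%). With a107 in the model 14 of the 42 passed along the coronal series, beside 10.8% of all probes.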

How the data were processed

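Total RNA of 22 brain fractions had been hybridised to Agilent mouse arrays in 1 colour. Per the file headers, the authors extracted spots with Feature Extraction 10.10.1.1, which gives a background-subtracted processed intensity per spot, on a design for the mm9 build. A series table of log2 values was deposited as well. All 47478 of its matched rows lay within 0.02 log2 units of the values computed here. Each array was 1 sample and groups came from the section plane in the labels.

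Outlier and control spots were left out, spots of a probe averaged, and the log2 processed intensity, less the array's 75th percentile, was analysed for 55600 probes (81 lacked a value on some array). Gene symbols came from RefSeq identifiers, a table of another assembly being used for names and gene order only. The tested set was the 39621 probes well above background in at least 1 fraction of each series. Positional change was tested with limma 3.58.1 in R 4.3.3, in 1 model of the 22 arrays in which each series had its own mean, slope and curvature against slab midpoint (13 residual degrees of freedom). A coronal or horizontal call tests slope and curvature together. A linear term is the fitted change from the first to the last fraction. Adjusted p is Benjamini-Hochberg over the tested set and 0.05 was its threshold. Summaries used Python 3.11.15. An array value below background was bounded by the lowest level well above background on that array. Models were tested on simulated data. Slide held several arrays: coronal fractions 1 and 3 to 8 on slide 1, fraction 2 on slide 2, fractions 9 and 10 with the sagittal series on slide 3, the horizontal series on slide 4.

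The rule for the members names gene families only, but the choice of these families, the other gene lists and the tests were made with earlier results of these data known. Members were described by family: those past the threshold in any position term (at most the 5 with the widest fitted coronal range per family), adjacent genes, and the 3 with the highest and the 3 with the lowest SD. Alternatives changed the scaling, background correction (normexp with an offset of 50, on median signals), deposited values, detection filter, probe, arrays and covariates, and left out each fraction.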

Additional observations from a re-analysis of the deposited data

Results flagged for a closer look

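Each member was checked in each series for 1 fraction far from the others, by the gap to the nearest value over the whole range (Dixon's ratio at the 95% level, 0.466 for 10 fractions and 0.625 for 6). Of 132 member and series combinations 8 passed, and about 5% would pass by chance. Gabre in the coronal series was highest in fraction 4 (ratio 0.761), the only fraction in which it was well above background. Gabrr2 in the coronal series was lowest in fraction 2 (0.483), on an array with the spike-in slope out of range, and Chrna3 in the coronal series was lowest in fraction 8 (0.483), where it was below background. In the horizontal series Gabra5 was highest in fraction 1 (0.738). The other 4 were all lowest in sagittal fraction 6: Gabrg3 (0.674), Glra3 (0.846, below background there), Grin3a (0.675) and Chrnb2 (0.707).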

How the results depend on the processing

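The 19 coronal calls were the same number when arrays were centred on their median or quantile normalized and with the deposited values, each time the same genes. Of all probes 14.3%, 16.8% and 19.8% passed in these fits, in that order, against 19.8% in the main fit. Without scaling 17 passed, Gabra4 (0.0945) and Grik5 (0.0502) being lost, and with normexp 20, Gabrg3 (0.0787) being lost (12.9% and 23.2% of all probes). The count moved to 12 with a107 as a covariate (10.8% of all probes against 19.8%). Among these 12 was Chrna2 (adjusted p = 0.0451), which had not passed in the main fit (0.178). The count was 7 with slide as a block (4.03%), 8 with the linear term alone (7.12%) and 4 with the coronal arrays alone (1.60%). It was 5 with the arrays of slide 1 (10.12%), a setting chosen after seeing the data, and 13 with the next probe. The horizontal count moved from 5 to 0 with a107, with the arrays in range, with the linear term alone and with the horizontal arrays alone (0.151%, 0.0328%, 0.52% and 0% of all probes against 6.57%), to 8 with slide as a block (13.6%) and to 2 with the next probe. Without scaling Gabrg1 (0.071), Glra2 (0.0546) and Grik3 (0.0522) lost their horizontal call, and Grik3 also with median centring (0.0576) and normexp (0.0632). The sagittal linear count moved from 3 to 1 with median centring, quantile normalization or no detection filter (4.24%, 4.73% and 6.49% of all probes against 10.2%), to 6 with normexp (15.7%), and to 0 with the arrays in range, the linear term alone or the sagittal arrays alone (8.67%, 0.0101% and 0%). The quadratic count was 1 without scaling and 1 with normexp (0.553% and 2.30% of all probes against 0.0303%), and a linear term alone gives none. With position terms in the fit the series means of 2 of 41 members differed, Grin2c and Chrnb2, beside 8.14% of all probes. Pairs above the r threshold numbered 75 at a threshold of 0.80, 13 at 0.90 and 86 with median centring. The share of all probe pairs at these settings is not given here. The auxiliary genes called fell to 14 with a107 (10.8% of all probes against 19.8%).

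Leaving out 1 fraction gave 13 to 29 coronal (29 without coronal fraction 1), 0 to 8 horizontal, 0 to 7 sagittal linear and 0 to 1 quadratic calls, 0 to 0 series mean calls, 40 to 41 detected members, 23 to 41 pairs, a median r of neighbours of 0.39 to 0.59 and 16 to 28 auxiliary genes. The sagittal count was 7 without coronal fraction 1, 5 without coronal fraction 2 and 0 without sagittal fraction 6 (12.53%, 12.47% and 0% of all probes), and 1 without coronal 4, 6, 7 or 9, horizontal 1, 2 or 4, or any 1 of sagittal 1 to 5 (7.93% to 10.5%). Grik4 lost its coronal call and its linear term turned positive without coronal fraction 10 (adjusted p = 0.0667, the highest over single fractions left out, the lowest being 0.000368). Fraction numbers are shared between series but pair nothing. With the fraction number as a replicate block 0 series means differed, as without it. Fewer arrays leave fewer residual degrees of freedom in the fits of 1 series, and levels below background have no order.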

Other observations

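Some members that did not pass along the coronal series had their highest coronal level in 1 part of it. Gabrd, the delta subunit of extrasynaptic GABA-A receptors, was highest in fractions 7 and 8 (2.56 and 2.74, median 1.64), where the mean level of the striatal markers was also highest (1.76 in fraction 8). Grin2c and Chrna2 were both highest in fraction 10 (0.64 and 0.02), against at most -0.26 and -0.66 in the other 9, and the olfactory bulb markers were highest there too. These levels are values from 1 array each.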
